A study of Mus musculus with 14 samples.

Results

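Egr3, Nr4a1, Nr4a3 and Fosb are immediate early genes, chosen here as the 4 rows of these symbols in a deposited table of 3956 genes that compares Kmt2a knockout with wild-type mouse lung. All 4 were found, and in each the mean of the knockout libraries lay far below that of the wild type. A second table, of 772 genes, compares Men1 knockout with wild-type lung and holds none of the 4. The members were chosen by their log2 ratios and adjusted p values in this Kmt2a contrast, so their levels in it are given as a description, without a test.

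The study sequenced total RNA from 14 libraries labelled as lung: 4 of Men1 KO mice, 4 of their WT mice, 3 of Kmt2a KO mice and 3 of their WT mice. Kmt2a encodes the histone methyltransferase MLL, and Men1 encodes menin, which binds it. The labels give neither strain, age nor the promoter or cell type in which the genes were deleted, and neither Kmt2a nor Men1 has a row in either table, so the genotypes could not be checked on the deleted genes. The libraries are labelled lung, but the protocol for RNA extraction speaks of peritoneal cavity macrophages. The alveolar type 2 gene Sftpb averaged 37056 normalized counts in wild type and 69073 in Kmt2a KO libraries, and of the peritoneal macrophage markers Gata6, Timd4, Icam2 and Adgre1 only Adgre1 has a row there. A gene has a row there only at an adjusted p below 0.05, so a missing row does not show that a marker was absent. The Men1 table holds no row of the alveolar type 1 or type 2 lists, so the label of those libraries was not checked. Lung is used below. Nothing in the labels beyond the sample numbers says that libraries came from separate animals, so p values measure the spread between these libraries.

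Immediate early genes are switched on within minutes of a stimulus, without new protein synthesis, through transcription factors that already sit in the cell, such as SRF with its partners and CREB. Egr3 encodes a zinc finger transcription factor of the EGR family. Nr4a1 (Nur77) and Nr4a3 (Nor1) encode orphan nuclear receptors that are active without a known hormone and are governed largely by their amount. Fosb encodes a leucine zipper protein that pairs with Jun proteins to form AP-1. Such genes respond to growth factors, mechanical stress, injury and also to the handling of tissue, and their RNAs are short-lived.

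Egr3 (ENSMUSG00000033730) lies on chromosome 14 from 70077203 to 70082614 on the plus strand, in the coordinates of the deposited table, whose build is GRCm38 (mm10) per the submitters' processing notes. Nr4a1 (ENSMUSG00000023034) lies on chromosome 15 from 101266846 to 101274792, plus strand. Nr4a3 (ENSMUSG00000028341) lies on chromosome 4 from 48045153 to 48086447, plus strand. Fosb (ENSMUSG00000003545) lies on chromosome 7 from 19302696 to 19310051, minus strand. No other gene of GENCODE M21 overlaps any of these 4 intervals, on either strand. The 4 genes sit on 4 different chromosomes.

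Because the 4 genes were low together, their promoters were read from RefSeq windows (build GRCm38.p6) of 250 bases before to 50 after a transcript start; 3 of the 4 members matched, Nr4a1, Nr4a3 and Fosb. The part of each window that precedes the gene start of the deposited table is shown 5′ to 3′, with capitals marking TGACG or its reverse complement CGTCA, the core of the cAMP response element (CRE) that CREB and ATF proteins bind.
Nr4a1 promoter, chr15:101266596-101266845, plus strand: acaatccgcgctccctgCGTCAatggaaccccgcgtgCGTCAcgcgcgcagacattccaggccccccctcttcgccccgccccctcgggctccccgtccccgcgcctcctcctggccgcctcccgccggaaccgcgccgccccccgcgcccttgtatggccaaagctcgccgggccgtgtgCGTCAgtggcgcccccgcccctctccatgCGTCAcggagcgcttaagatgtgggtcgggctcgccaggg
Nr4a3 promoter, chr4:48045055-48045152, plus strand: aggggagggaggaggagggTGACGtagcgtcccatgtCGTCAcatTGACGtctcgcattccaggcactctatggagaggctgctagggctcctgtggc
Fosb promoter, chr7:19310052-19310295, minus strand: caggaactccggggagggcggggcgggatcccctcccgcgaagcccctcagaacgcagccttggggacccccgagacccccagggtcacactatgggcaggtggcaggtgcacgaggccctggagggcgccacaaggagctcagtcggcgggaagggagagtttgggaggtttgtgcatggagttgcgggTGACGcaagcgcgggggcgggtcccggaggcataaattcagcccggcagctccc
Over the full windows of 300 bases, this core occurred 4 times for Nr4a1, 4 times for Nr4a3 and 1 time for Fosb, searched on both strands. Among all 32851 windows of the same length, 20.8% held at least 1 copy and 0.231% held 4 or more. The complete palindrome TGACGTCA, which contains the core on both strands, was in none of the 3 windows and in 1.79% of all. The letters of an AP-1 site (TGACTCA), an EGR site (GCGTGGGCG), a site of monomeric NR4A receptors (AAAGGTCA) and a CArG box, the site of SRF, were also in none of the 3, against 5.20%, 0.612%, 1.51% and 1.63% of all windows. These matches describe the letters of the windows and not binding.

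Values per library of the Kmt2a comparison are normalized counts, reads divided by 1 size factor per library. The deposited table gives only their group means. Whole reads of the libraries behind each mean were recovered from its digits, as described under the processing. The letters a, b and c name the recovered libraries of a group, which cannot be tied to the sample numbers in the labels, and library a of one group has no link with library a of the other. Reads were recovered in both groups for 3832 genes, and the size factors they gave ranged from 1.07 to 1.18 in the knockout and from 0.817 to 0.960 in the wild type.

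Egr3 showed the largest difference of the 4. It stood at 79.1, 76.9 and 60.7 normalized counts in knockout libraries a, b and c and at 331, 1601 and 735 in the wild type. The groups did not overlap, as held for 95.6% of the 1905 genes of the whole table called lower with recovered reads. The lowest wild-type library was 4.19 times the highest knockout library. The means were 72.2 ± 10.1 (SD, n = 3) in the knockout and 889 ± 649 (SD, n = 3) in the wild type, a log2 ratio of −3.62, with wild type 12.3-fold higher. These values rest on 65 to 93 reads per knockout library and 318 to 1453 per wild-type library. The adjusted p in the authors' deposited table, one of the values that chose the gene, was 2.51e-10.

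Nr4a1 was the most abundant member and was low to nearly the same degree. Knockout libraries a, b and c held 1654, 1973 and 1052 normalized counts. The wild-type libraries held 5817, 27416 and 13430. In these reads, again, no library overlapped, and wild-type library b was the highest by far. The means were 1560 ± 468 (SD, n = 3) and 15554 ± 10955 (SD, n = 3), a log2 ratio of −3.32, or 9.97-fold higher in the wild type. The authors' deposited table gives an adjusted p of 7.75e-09. The wild-type library values of Nr4a1 rest on a choice between 2 sets of whole reads: a second set of whole reads (464, 8627 and 37571 normalized counts) missed the deposited mean by 0.598 units of its last digit, against a largest miss of 0.515 units among 1139 resolved wild-type means of the same leading digit, and was set aside. The group mean and the log2 ratio do not depend on this. The lack of overlap, the SD, the place of library b and all later values of Nr4a1 by wild-type library do. In the set put aside, library a lay below every knockout library and library c was highest.

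Nr4a3 separated the groups most cleanly. It stood at 156, 104 and 144 normalized counts in knockout libraries a, b and c and at 838, 932 and 1465 in the wild type. The lowest wild-type library was 5.36 times the highest knockout library, the widest gap of the 4. The means were 135 ± 27.3 and 1079 ± 338 (SD, n = 3 each), a log2 ratio of −3.00, or 8.01-fold higher in the wild type, with an adjusted p of 1.31e-21 in the authors' deposited table, the smallest among the 4.

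Fosb had the smallest margin. Its knockout libraries a, b and c held 212, 144 and 154 normalized counts and its wild-type libraries 279, 1567 and 1012. Wild-type library a was only 1.32 times the highest knockout library, so the groups were separate but close there. The means were 170 ± 36.5 and 953 ± 646 (SD, n = 3 each), a log2 ratio of −2.49, or 5.61-fold higher in the wild type, with an adjusted p of 9.36e-05 in the authors' deposited table. The RNA of Fosb encodes a full-length and a truncated form by splicing, and gene-level counts do not separate them.

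**Figure D1:**
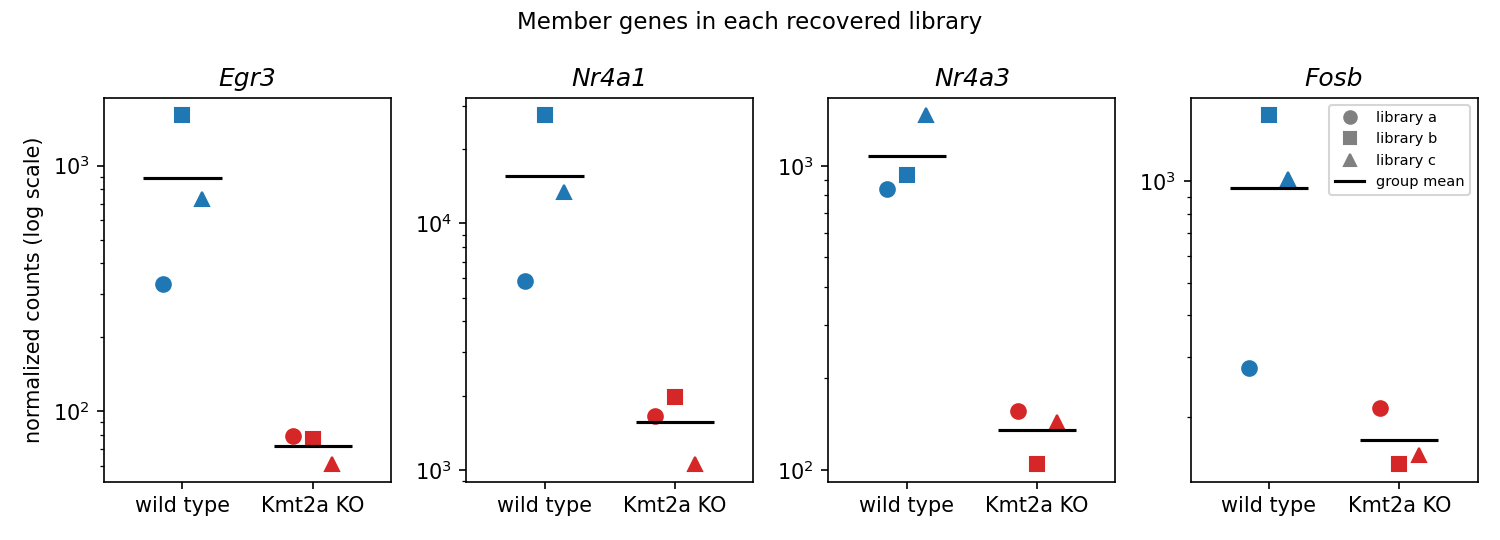
Normalized counts of Egr3, Nr4a1, Nr4a3 and Fosb (log scale, each gene with its own axis) in the 3 recovered wild-type libraries (blue) and the 3 recovered Kmt2a KO libraries (red), with symbols for libraries a, b and c and a line at the group mean. All knockout points lie below all wild-type points, with the smallest gap for Fosb, where 279 in wild-type library a faces 212 in knockout library a. The same lack of overlap held for 95.6% of the 1905 genes called lower with recovered reads. The wild-type points of Nr4a1 rest on the accepted set of reads.

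Divided by gene length, Nr4a1 was the most abundant member in both groups, at a mean of 6287 normalized counts per kilobase in wild type and 630 in knockout libraries. In the wild type Egr3 followed at 202, Nr4a3 at 180 and Fosb at 153 per kilobase, a difference smaller than the spread of Egr3 or Fosb between wild-type libraries. In the knockout the order of these 3 was reversed, with Fosb at 27.2, Nr4a3 at 22.5 and Egr3 at 16.4 per kilobase, and the libraries of neighbours in that order overlapped. Among the 1620 genes of the table that were lower and had a mean of at least 50 in a group, Egr3 ranked 39, Nr4a1 55, Nr4a3 83 and Fosb 164 by the size of the fall.

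The spread among wild-type libraries was much larger than among knockout libraries for 3 members. The coefficient of variation was 73.0% for Egr3, 70.4% for Nr4a1 and 67.8% for Fosb in the wild type, and 13.9%, 30.0% and 21.5% in the knockout. Wild-type library b was highest for these 3 genes and library a lowest. Nr4a3 varied less, at 31.4% and 20.3%, and was highest in library c. Without wild-type library b, the log2 ratio was −2.88 for Egr3 and −2.63 for Nr4a1, a fold smaller by more than 1.5 times, and −1.93 for Fosb and −3.10 for Nr4a3.

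Part of the other genes of the same kind were lower as well. Lists of 77 immediate early genes, the 4 members among them, held 23 genes that were lower and 2 that were higher by the authors' deposited adjusted p, at a threshold of 0.05. That is 29.9% of the list called lower, against 9.07% of the 21574 genes the authors tested, and 2.60% called higher against 9.27%. The number 21574 follows from the deposited p and adjusted p values. Without the 4 members, 19 of 73 (26.0%) were lower and 2 higher, with a median log2 ratio of −1.27 over the 21 in the table, against 0.34 over all 3956 genes of the table. Both medians cover only genes the authors called. The lists were chosen with earlier results of these data known, so these shares are a description. Of the 23 lower genes, 20 were at least 2-fold lower. Among all genes tested 1957 were called lower, and 1090 of these (5.05% of the 21574) were at least 2-fold lower. Without wild-type library b the number in the list was 12, and all 23 kept a lower knockout mean. No library overlapped in 22 of the 23, Egr1 being the exception; the same held for 95.6% of the 1905 lower genes of the whole table with recovered reads, so the lack of overlap is not particular to the list. The remaining 52 list genes, among them Fos, Jun, Junb, Dusp1 and Zfp36, have no row in the table, which holds only genes with an adjusted p below 0.05.

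Within the EGR family, Egr1 and Egr2 fell with Egr3 but by less. Egr1, the most studied member, stood at 1707, 3032 and 1338 normalized counts in knockout libraries a, b and c and at 2193, 18407 and 6096 in the wild type (log2 ratio −2.14, adjusted p = 0.00981 in the authors' deposited table). Its groups overlapped, since knockout library b lay above wild-type library a. Egr2, known for its role in myelination and in T cells, stood at 173, 131 and 91.5 against 184, 714 and 251 (log2 ratio −1.54, adjusted p = 0.0231 in the authors' deposited table). Nab2, a corepressor that EGR proteins recruit and induce, fell from a mean of 1193 normalized counts to 787, a log2 ratio of −0.60 (adjusted p = 0.00517 in the authors' deposited table). Egr4 and Nab1 have no row. The ratio of Egr3 to Egr1 within a library, which does not depend on the size factor, ran from 0.0254 to 0.0463 in the knockout and from 0.0870 to 0.151 in the wild type. Egr3 was chosen by its fall in these libraries and Egr1 was not, so the lower ratio is a description only.

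All 3 NR4A receptors fell. Nr4a2 (Nurr1), best known from dopamine neurons, stood at 367, 428 and 411 normalized counts in knockout libraries a, b and c and at 717, 1682 and 1865 in the wild type, a log2 ratio of −1.82 (adjusted p = 1.33e-05 in the authors' deposited table). Within libraries, the ratio of Nr4a1 to Nr4a2 ran from 2.56 to 4.60 in the knockout and from 7.20 to 16.3 in the wild type. The ratio of Nr4a3 to Nr4a2 ran from 0.243 to 0.427 in the knockout and from 0.554 to 1.17 in the wild type. Relative to Nr4a2, both members were lower in every knockout library than in any wild-type library. Both were chosen by their fall in these libraries and Nr4a2 was not, so these ratios are a description only. The ratio of Nr4a1 to Nr4a3 overlapped between groups, at 7.32 to 19.0 and 6.94 to 29.4.

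Among 15 AP-1 genes, 3 (20.0%, against 9.07% of all genes tested) were lower and none higher in the authors' deposited table. Without the chosen Fosb, 2 of 14 were lower. Beside Fosb these were Atf3, a stress-induced repressor, and Mafg, a small Maf protein that pairs with Nrf2. Atf3 stood at 441, 253 and 279 normalized counts in knockout libraries a, b and c and at 648, 2158 and 2172 in the wild type, a log2 ratio of −2.35, the next largest fall on the immediate early lists after that of Fosb. Mafg differed little, with means of 2523 and 3425 (log2 ratio −0.44). Its libraries did not overlap, as held for 95.6% of the 1905 lower genes with recovered reads.

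Of the 53 other immediate early genes, 13 (24.5%) were lower and 2 (3.77%) higher in the authors' deposited table, against 9.07% and 9.27% of all genes tested. The median log2 ratio over these 15 was −1.23. Apold1, an endothelial gene induced by hypoxia and injury, had means of 75.7 ± 22.3 and 381 ± 327 (SD, n = 3 each) and a log2 ratio of −2.33. Npas4, a transcription factor induced by calcium, was rare, at 10.2 to 19.2 normalized counts in the knockout and 49.98 to 109 in the wild type, with a log2 ratio of −2.33. Cyr61 (Ccn1), a secreted matrix protein and target of SRF and YAP, ran from 2680 to 5659 in the knockout and from 6847 to 31810 in the wild type, a log2 ratio of −2.18. The antiproliferative gene Btg2 had a log2 ratio of −1.69, the polo-like kinase genes Plk3 and Plk2 of −1.43 and −1.27, and the clock gene Per1 of −1.37. The others that fell were Ier2 (−1.23), Klf2 (−1.19), Klf4 (−1.18), Csrnp1 (−1.12), Ppp1r15a (−1.05) and Cebpb (−0.65). The 2 genes that were higher were the neutrophil chemokine gene Cxcl1, with means of 88.8 and 28.9 normalized counts (log2 ratio 1.62), and the growth arrest gene Gadd45g, with 1630 and 1132 (log2 ratio 0.53).

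**Figure D2:**
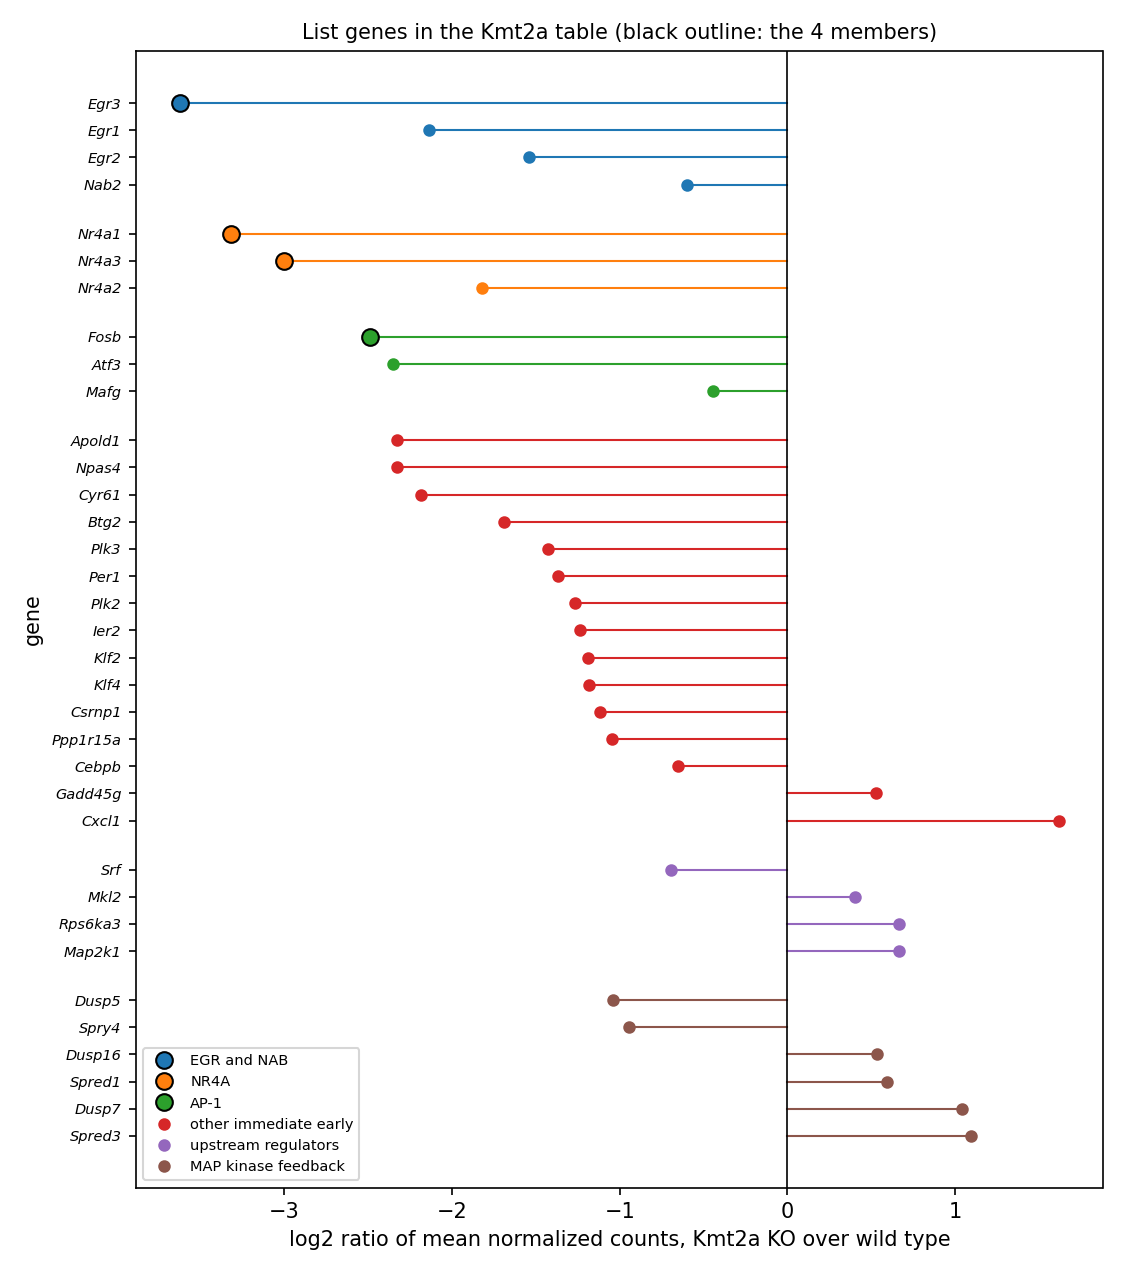
Log2 ratio of mean normalized counts, Kmt2a KO over wild type, for the list genes reported here with a row in the Kmt2a table, coloured by list, with the 4 members outlined in black. Egr3 (−3.62), Nr4a1 (−3.32), Nr4a3 (−3.00) and Fosb (−2.49) have the largest falls, while most of the upstream regulators and feedback inhibitors with a row lie above 0.

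Few of the genes that act upstream of the immediate early genes were called. Of 32 upstream regulators 1 (3.12%) was lower and 4 (12.5%) higher in the authors' deposited table, against 9.07% and 9.27% of all genes tested, and 27 have no row. For a list of this size these shares are near those of all genes and are not a result about the regulators. The gene that fell was Srf, the factor that binds CArG boxes and is itself an immediate early gene, from 3145 to 1944 mean normalized counts (log2 ratio −0.69). Among those that rose were Map2k1 (MEK1, 0.67), Rps6ka3 (RSK2, 0.66) and the SRF coactivator gene Mkl2 (0.40). Of 18 feedback inhibitors of MAP kinase signalling, 2 (11.1%) were lower and 4 (22.2%) higher, and 12 have no row. The lower ones were the phosphatase gene Dusp5 (−1.04) and Spry4 (−0.94, with overlapping libraries), and the higher ones Spred3 (1.09), Dusp7 (1.04), Spred1 (0.59) and Dusp16 (0.54).

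The wild-type libraries differed from each other in the immediate early genes as a group. Of the 23 lower genes, 18 (78.3%) were highest in wild-type library b and 16 were lowest in library a. Among the 1905 lower genes of the whole table with recovered reads, 528 (27.7%) were highest in library b and 571 were lowest in library a. For Nr4a1, Cyr61 and Klf2 another set of reads, highest in library c, was set aside because it missed the deposited mean by more. Counts by wild-type library rest on these choices.

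**Figure D3:**
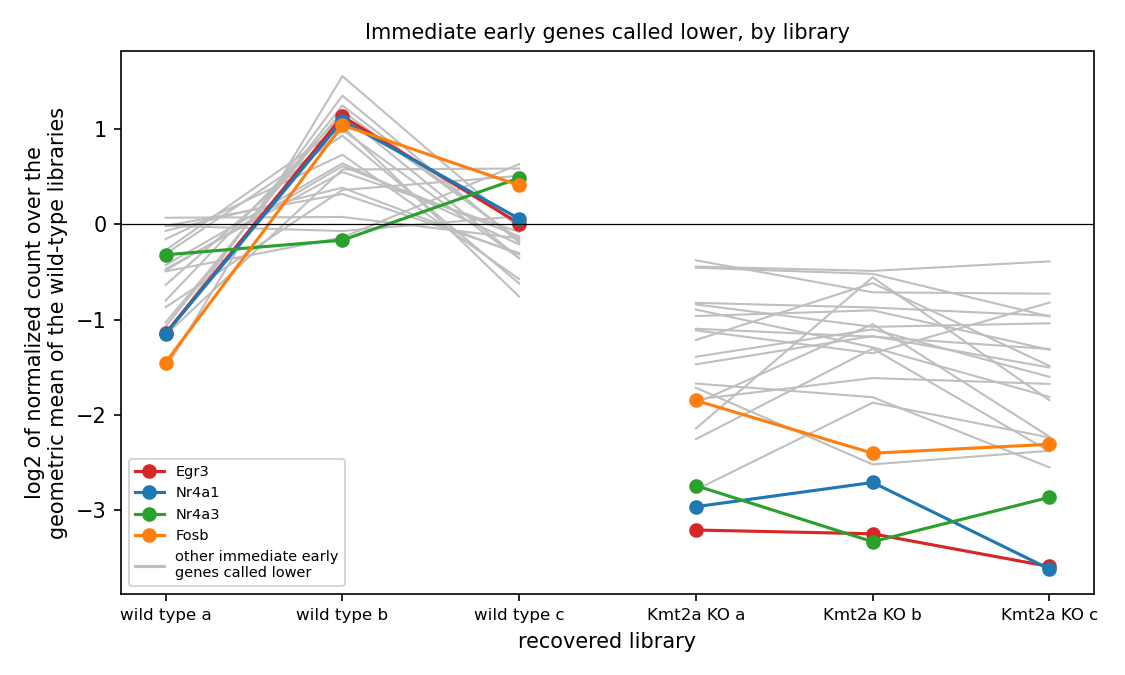
Log2 of the normalized count over the geometric mean of the wild-type libraries for the 23 immediate early genes called lower, in the 6 recovered libraries, with the 4 members in colour. Lines join the values of a gene and imply no order of libraries; 18 of the 23 genes are highest in wild-type library b and Nr4a3 in library c, and in the knockout Fosb lies among the other genes.

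Genes of other lists were also called lower in the Kmt2a knockout. These were 7 of 8 cardiac muscle (87.5%), 5 of 6 smooth muscle (83.3%), 4 of 5 red cell (80%) and 3 of 4 adipocyte markers (75%). Of all genes tested 9.07% were called lower. The sums of these 4 lists cover only markers with a row, all called lower, so a lower knockout mean of a sum follows from the calls. The order of the wild-type libraries differed from that of the immediate early genes in most. The summed normalized counts of 6 of the 8 cardiac muscle markers, with recovered reads, ran from 4756 to 8176 in the knockout and from 17184 to 66756 in the wild type, where library b was lowest and library a highest. The 5 of 6 smooth muscle markers with a row summed to between 15220 and 18301 in the knockout and between 29346 and 62587 in the wild type, highest in library c. The red cell markers Hba-a2 and Hbb-bt, 2 of the 5 in that list, summed to between 1032 and 2945 in the knockout and between 7639 and 32565 in the wild type. They were highest in library b as were Egr3, Nr4a1 and Fosb, but this rests on a choice of reads for Hbb-bt. A second wild-type set of Hbb-bt (392, 3661 and 28943 normalized counts), highest in library c, missed the deposited mean by 0.579 units of its last digit. It was set aside as for Nr4a1. The 3 adipocyte markers with a row summed to between 11.9 and 31.5 in the knockout and to 777, 14.3 and 69.8 in wild-type libraries a, b and c. Lung epithelial markers were higher in the knockout, 3 of 4 for alveolar type 1 and 3 of 4 for alveolar type 2 cells, as were 2 of 5 alveolar macrophage markers. Of all genes tested 9.27% were called higher. None of the 8 endothelial, 6 T and NK cell or 5 neutrophil markers has a row. The part of cell makeup in the immediate early values was not tested, and in such bulk libraries fewer cells of a type and less RNA per cell cannot be told apart.

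Heat shock genes, which respond to stress of the tissue, were also called often. Of 14, 7 (50%) were lower and 1 (7.14%) higher in the authors' deposited table for Kmt2a, against 9.07% and 9.27% of all genes tested. Hspa1b stood at 847, 352 and 1015 normalized counts in knockout libraries a, b and c and at 3344, 2628 and 3807 in the wild type (log2 ratio −2.14). Hspa1a stood at 424, 254 and 540 against 1485, 1122 and 2292 (log2 ratio −2.01). Hspa1a and Hspa1b are near-identical copies, so reads may be split between them. The other heat shock genes that fell did so by less, Dnajb4 (−0.87), Dnajb1 (−0.81), Hspe1 (−0.65), Bag3 (−0.60) and Hspb1 (−0.57), and Hspa5 rose (0.47). The libraries of neither Hspa1a nor Hspa1b overlapped, as held for 95.6% of the 1905 lower genes with recovered reads. Wild-type library b was the lowest for 5 of the 7 lower heat shock genes, and for 746 of the 1905 lower genes with recovered reads. It was the highest for 18 of the 23 immediate early genes, against 528 (27.7%) of those 1905. The part of the heat shock genes in the immediate early result was not tested.

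**Figure D4:**
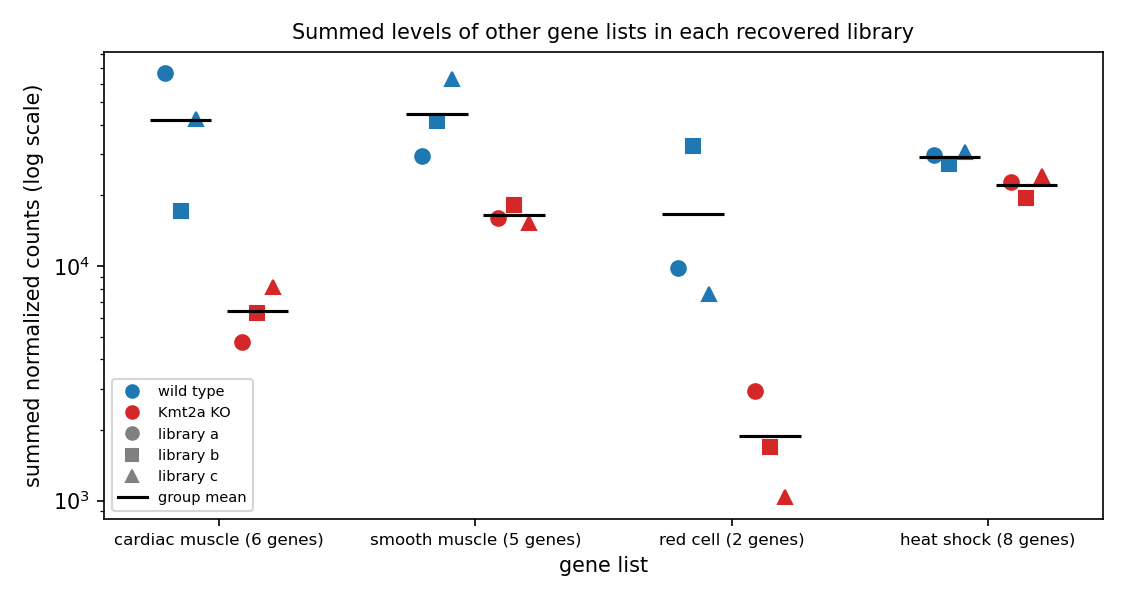
Summed normalized counts (log scale) of the cardiac muscle, smooth muscle, red cell and heat shock genes with recovered reads, in the 3 wild-type (blue) and 3 Kmt2a KO (red) libraries, with a line at the group mean. Wild-type library b is the lowest for cardiac muscle, at 17184, and the highest for red cell genes, at 32565. The red cell values of the wild type rest on the accepted set of reads for Hbb-bt. Only genes with a row, all called by the authors, are summed, so the gap between groups follows largely from the calls.

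In the Men1 comparison none of the 4 members and none of the 77 immediate early genes has a row. That table holds 772 genes, whose p values are all under 0.05 and whose log2 fold changes are all at least 1 in size, so no immediate early gene has a row meeting both. By the authors' deposited adjusted p, 13 of the 772 rows (1.68%) were called, a share of genes already selected, and none of the 13 is an immediate early gene. No level of the members in the Men1 libraries can be given, and the difference between the 2 knockouts was not tested. The heat shock genes Hspa1a and Hspa1b do have rows, which they owe to passing those thresholds in the same 8 libraries, so their values are given without a test of their own. Hspa1a stood at 37.8 to 160 normalized counts in the 4 Men1 KO libraries and at 166 to 815 in the 4 WT libraries, with no overlap (log2 ratio −2.70). Its adjusted p in the authors' deposited table was 0.0202. Hspa1b stood at 235 to 445 and at 368 to 4640, with overlap, a log2 ratio of −2.40 that was −1.44 without WT-6097, and its adjusted p in the authors' deposited table was 0.120.

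Outside the lists, the 5 genes of the Kmt2a table whose levels followed the mean of the 4 standardised members most closely over the 6 libraries were Htr2b, C030037D09Rik, Mast1, Gm22918 and Gm15710. They were the highest Pearson r among 3262 genes with recovered reads and a mean of at least 50 in a group, on log2 values with 1 added, and the r is given as a description over libraries that fall into 2 separate groups. Htr2b, a serotonin receptor, had an r of 0.998 and stood at 13.6, 12.2 and 9.33 normalized counts in knockout libraries a, b and c and at 33.3, 90.4 and 71.0 in the wild type. The kinase gene Mast1 had an r of 0.995 and means of 57.5 and 143, and C030037D09Rik, annotated as a lincRNA, an r of 0.997 and means of 55.4 and 92.6. Gm22918, annotated as a miRNA, had an r of 0.993 and only 1 read in each knockout library, and the processed pseudogene Gm15710 an r of 0.987. Among the listed genes outside the 4 members, Atf3 (0.977), Plk2 (0.974) and Nr4a2 (0.973) came closest to the members' mean.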

How the data were processed

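Total RNA libraries (NEBNext Ultra kit, per the labels' protocols) were sequenced. Per the submitters' processing notes, the tools were DESeq2 1.16.1, HISAT2 2.0.5 and featureCounts 1.5.0-p3 and the builds GRCm38 and mm10, with no roles stated. For Men1 the authors deposited raw counts per library beside a signal, the counts over a size factor per library. The Kmt2a table holds a deposited signal, the mean normalized count per group, whose knockout column is headed MLL and whose wild-type column names no libraries. It was taken as the Kmt2a wild-type group. Both hold the authors' deposited log2 fold change, p-value and adjusted p-value for selected genes only, so no test across genes was refitted and calls are the authors'. For Men1, 2 raw count columns of wild-type libraries fit none of the samples and were left out.

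A Kmt2a mean is a sum of 3 whole read numbers times a step per library. Steps were read from the lowest means and every combination was searched, up to means of 10000 for all genes and 20000 for listed genes. A mean was resolved where 1 combination matched its 15 digits. This held for 3855 of 3856 knockout and all 3886 wild-type means tried. Reads recovered per library over the table were 3066799 to 4666164; totals of whole libraries are unknown. The search was tested on simulated data for smaller means only, well below 10000. Means above 10000, such as the wild-type mean of Nr4a1, needed a further limit on the miss in units of the last digit. The simulation did not cover that limit. The number of genes tested by the authors was computed as adjusted p times rank over p, which gave 21574 in 3202 of 3955 rows.

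Log2 ratios are of group means without a pseudocount, knockout over wild type. Means ± SD are over libraries. Other factors came from edgeR 4.0.16 (TMM) and from medians of ratios. They were computed on 3832 genes for Kmt2a and 772 for Men1, all selected as differing between groups. Such factors assume that most genes are unchanged, so they are no independent check of the authors' factors. An exact permutation test of the Men1 list genes was planned and is not reported, because genes have rows there only through passing thresholds in the same libraries. Members and lists were chosen with earlier results of these data known. Named genes are the members, all EGR, NR4A and AP-1 list genes with a row, the heat shock genes with a row, the 5 most similar genes, and from the other immediate early, upstream and feedback lists the genes with a row, in detail the 8 largest differences at a mean of at least 50. A result on 1 upstream regulator is not reported here. No paired analysis was possible because the groups share no sample numbers.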

Additional observations from a re-analysis of the deposited data

How the results depend on the processing

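The direction of all 4 members held under every alternative run, and each log2 ratio moved by less than the spread between libraries. The members and the 23 immediate early genes called lower were picked by this contrast. In the accepted reads every knockout library of a member lay below every wild-type library, so leaving out 1 library could not reverse it. A held direction is thus no check. The spread is that of single libraries, a wide bar for a move of a mean. Pseudocounts of 1 and 10, TMM and median-of-ratios factors and geometric means gave −3.68 to −3.33 for Egr3, −3.38 to −3.09 for Nr4a1, −3.06 to −2.91 for Nr4a3 and −2.55 to −2.18 for Fosb. Leaving out 1 recovered library gave −4.02 to −2.88, −3.71 to −2.63, −3.15 to −2.72 and −2.92 to −1.93. The 23 immediate early genes called lower became 17 at an adjusted p below 0.01 and 20 at an absolute log2 ratio of at least 1; the 2 called higher became 0 and 1. Without 1 library, counts chosen after seeing the data were 12 (wild-type library b) to 20 genes at least 2-fold lower, and 23 in every case with a lower knockout mean. The Men1 count of 0 follows from the lack of any row, so no setting could change it. Leaving out 1 replicate gave log2 ratios of −3.37 to −2.35 for Hspa1a and −2.74 to −1.44 for Hspa1b in the Men1 comparison, and TMM factors −3.46 and −3.21. These TMM factors came from the 772 selected genes only. They ran from 1.28 to 1.65 in Men1 KO and from 0.652 to 0.760 in WT libraries, where the deposited factors ran from 0.811 to 1.38 and from 0.846 to 1.04. The 2 TMM values are thus no check of the size of the fall. With 3 libraries a group and no row for genes that missed the authors' threshold, unchanged list genes cannot be told from untested ones. No paired analysis was possible because the groups share no sample numbers.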
